A study of Mus musculus and synthetic RNA with 74 samples.

Results

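The subunits of the oxidative phosphorylation machinery encoded in the nucleus were followed through the deposited tables of the Mettl16 study. Genes were taken as members when their listed name began with Nduf followed by a, b, c, s or v and a digit, was Sdha, Sdhb, Sdhc or Sdhd, or began with Uqcr, Cox4 to Cox8 or Atp5. The rule gave 84 genes of the 21890 listed at either stage, of which 83 were listed at E2.5 and 84 at E3.5. They were divided by name into complex I (37 genes), complex II (4), complex III (8), complex IV (18) and complex V (17). Atp5s, Atp5sl and Cox7a2l carry such names but are not regarded as structural subunits of a complex, and Ndufa4, placed in complex I by its name, is now regarded as a subunit of complex IV.

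Single embryos from crosses of Mettl16 heterozygous mice were sequenced by Smart-seq2, which amplifies polyadenylated RNA and does not keep the strand. The embryos descend from 1 mouse line in which a cassette of stop codons was inserted into exon 3 of Mettl16, and its B6D2F1/J founders were crossed with C57BL/6JRj mice. At embryonic day 2.5, the morula stage, there were 31 embryos, 5 wild type (WT), 14 heterozygous (HET) and 12 knockout (KO). At embryonic day 3.5, the blastocyst stage, there were 39 embryos, 18 WT, 9 HET and 12 KO. The values used here are 1 mean per gene and stage over all embryos of that stage, so WT, HET and KO embryos are not separated, no spread between embryos can be given, and no difference between stages or genes in the embryo data carries a test. The KO embryos made up 38.7% of the E2.5 and 30.8% of the E3.5 embryos, and the part of this difference in any stage ratio was not tested. The means do not carry the depth of each embryo, and the read numbers that the study lists for its libraries were not used here. The same study methylated a random 30-nt RNA library in vitro with recombinant METTL16, and 2 input and 2 m6A-IP libraries from the reactions numbered 11 and 12 are used near the end of this section.

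Complex I takes electrons from NADH through its flavin and iron-sulfur subunits, complex II takes them from succinate, complex III passes them from ubiquinol to cytochrome c, and complex IV passes them to oxygen. Complex V uses the resulting proton gradient to make ATP in its F1 head, which is driven by the c-ring in the membrane. Besides the nuclear subunits described here, complexes I, III, IV and V contain subunits encoded by mitochondrial DNA, which are not analysed here. Several complex IV subunits exist as pairs of isoforms, one in most tissues and the other in muscle, testis, lung or other restricted sites. During preimplantation development, mitochondria inherited from the oocyte become more active in respiration as the blastocyst forms.

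The stage labels could be checked against marker genes. Krt8 and Krt18, keratins of the trophectoderm, had mean normalized counts of 651 and 1332 at E2.5 and of 30838 and 35173 at E3.5, and Gata3, a trophectoderm factor, 511 and 9266. Of the 12 morula and blastocyst markers 8 had a stage ratio of 2 or more, in the share of the table total, and 3 one of 0.5 or less. The trophectoderm factors Tead4 and Tfap2c were among the 3, with ratios of 0.342 and 0.304, as was the pluripotency factor Pou5f1, with means of 9017 and 3527, whereas the pluripotency factors Nanog and Sox2 had ratios of 6.54 and 10.5. All 6 oocyte markers were lower at E3.5. The most abundant of them, the zona pellucida gene Zp3, had means of 1587 and 104 and lay above 87.8% of all genes per kb at E2.5, and Oosp1 had 296 and 10.4. Of 10 markers of granulosa, blood and stromal cells only Hba-a1, with 49.6 and 12.0, and Vim, with 10.7 and 81.0, had a mean of at least 10 at both stages, while Amh, of granulosa cells, was at 0.353 and 0.0606 and Ptprc, of blood cells, at 0.316 and 1.34.

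Levels between genes were compared as the mean normalized count per kb of the union of a gene's exons, each stage within its own table, for genes whose mean reached 10. The members were among the abundant messages of both stages. Their median level per kb was 2926 at E2.5 and 7058 at E3.5, 34.4-fold and 57.3-fold the median of all genes, and 53 of the 79 members measured at E2.5 and 69 of 79 at E3.5 lay in the top 10% of all genes. Together the 84 genes took 1.26% of the summed signal of the E2.5 table and 2.58% of that of the E3.5 table.

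The complexes were ordered alike at both stages at the lower end. Complex II had the lowest median level per kb, 765 at E2.5 and 2301 at E3.5, followed by complex I with 1973 and 5438 and complex III with 3677 and 8229. Complex V was the highest at E2.5, with 5697 against 4502 for complex IV, and complex IV the highest at E3.5, with 18691 against 15688. Neither order at the top held under all alternatives. Without tissue-restricted isoforms complex IV was above complex V at E2.5, at 88.7-fold against 66.9-fold the all-gene median, and with no filter on low values complex V was above complex IV at E3.5, at 734-fold against 488-fold. The genes of different complexes overlapped widely, as the plot of levels by complex shows.

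**Figure D1:**
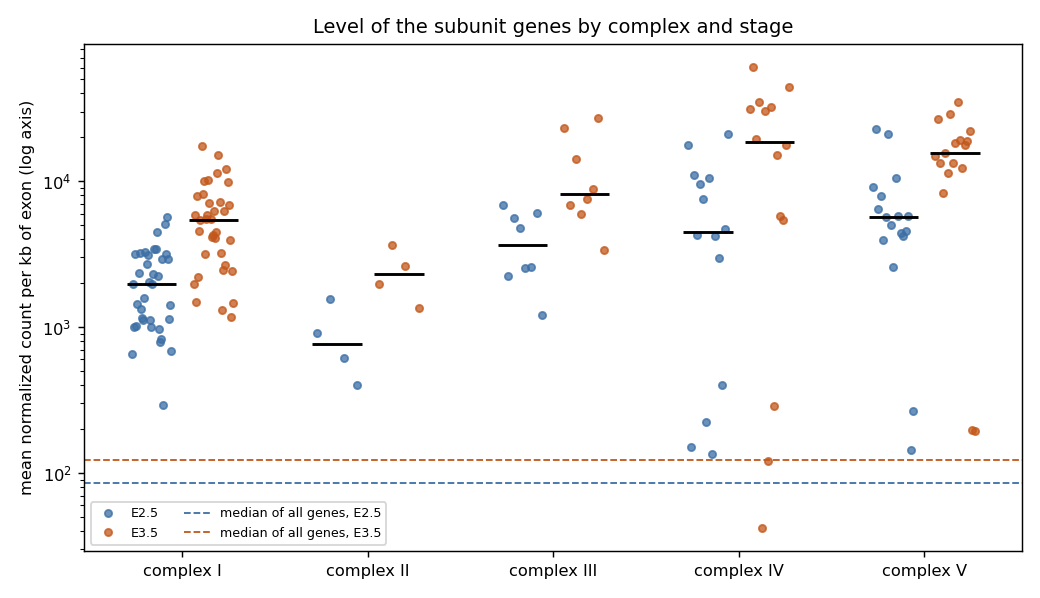
Mean normalized count per kb of exon (log axis) of each member with a mean of at least 10, by complex and stage. Each point is 1 gene, the black bars are the medians of a complex and the dashed lines the medians of all genes, 85.2 at E2.5 and 123 at E3.5; nearly all members lie above them, and the points under 300 in complexes IV and V are tissue-restricted isoforms, Atp5s and Atp5sl.

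In complex I the highest member per kb at E2.5 was Ndufs7, a core subunit next to the quinone site, with 5638, and the lowest Ndufs4, a supernumerary subunit of the NADH-oxidizing module, with 293. At E3.5 the highest was Ndufa4, with 17330, and the lowest Ndufv1, which binds the flavin and NADH, with 1178. Within complex II, Sdhb, the iron-sulfur subunit, was the highest at both stages with 1568 and 3636, and Sdhd, a membrane anchor, the lowest with 399 and 1351. In complex III, the small subunit Uqcr10 led at E2.5 with 6910 and the hinge protein Uqcrh at E3.5 with 26941, and Uqcrq was the lowest at both stages with 1201 and 3353.

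Complex IV held both extremes of the members at E3.5 and the lowest level at E2.5. Within the complex, Cox8a led at E2.5 with 20950 per kb and Cox5a at E3.5 with 60573, the latter the highest level of any member at either stage. Cox7a1 was the lowest at E2.5, with 134, and Cox6a2 at E3.5, with 42.0, both of them isoforms of heart and skeletal muscle. In complex V the catalytic beta subunit Atp5b was the highest at E2.5 with 22631 per kb, from a mean count of 42523, the largest of all members at that stage. At E3.5 the peripheral stalk subunit Atp5h was the highest with 35059. The lowest were Atp5s at E2.5, with 144, and Atp5sl at E3.5, with 193.

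In all, 6 members had a mean under 10 at one stage or both, and all of them were tissue-restricted isoforms. Cox7b2, known from testis, was at 3.08 and 3.11, and Cox8c, also known from testis, at 6.13 and 1.20. Cox6a2, the muscle isoform, was at 2.45 and 27.7. Ndufa4l2, an isoform associated with hypoxia, was at 0.0303 and 0.514, and Cox8b, a muscle isoform, was not listed at E2.5 and at 0.0449 at E3.5. Cox4i2, the isoform of lung and of oxygen-sensing cells, had 109 at E2.5 and 6.25 at E3.5.

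The broadly expressed isoform held most of the signal in each of the paired families, in levels per kb. Cox4i1 made up 99.2% of the Cox4i1 and Cox4i2 signal at E2.5 and 99.97% at E3.5. Cox6a1 made up 99.96% and 99.88% of its pair, Cox6b1 97.1% and 99.6%, Cox7b 98.6% and 99.9%, and Cox8a 99.94% and 99.99%. Ndufa4 made up 99.999% and 99.997% of its pair. Cox7a2, the broad isoform, shared its family with Cox7a2l, a factor of respiratory supercomplexes: Cox7a2 took 57.3% and 71.5%, Cox7a2l 40.9% and 27.2%, and Cox7a1 1.84% and 1.36%. From summed exon counts Cox7a2 took 77.3% and 86.1% and Cox7a2l 20.3% and 12.2%, so the share of Cox7a2l is uncertain in size, while Cox7a2 was the higher of the 2 from either source.

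The c-ring genes behaved differently from these pairs. Atp5g1, Atp5g2 and Atp5g3 encode precursors whose mature c subunit is the same and differ in the targeting peptide. Atp5g1 had 20967 per kb at E2.5 and 29088 at E3.5, Atp5g2 4983 and 13282, and Atp5g3 2600 and 18222. The share of Atp5g1 was thus 73.4% at E2.5 and 48.0% at E3.5, and that of Atp5g3 9.11% and 30.1%, with Atp5g2 at 17.5% and 21.9%. The order of the 3 depended on the source of the counts. From summed exon counts per kb, Atp5g3 lay above Atp5g2 at E2.5, with 7781 against 3689, and slightly above Atp5g1 at E3.5, with 41145 against 40615, and its share was 14.6% and 45.8%. Its share was thus larger at E3.5 from either source. Reads from the similar coding parts could be split between these genes by the estimation, which was not tested, so their values are uncertain. Atp5l and Ndufb4 had summed exon counts of 0.565 and 0.574 of the Salmon estimate at E2.5, against 2.21 for Atp5b and 1.96 for Cox7b, and are also given as uncertain.

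For the comparison of stages, each mean was divided by the total of its table, since each stage had been normalized by itself. In this share of the total, the members were higher at E3.5 than at E2.5 beyond the shift of all genes. The median log2 ratio of E3.5 over E2.5 was 1.36 for the 78 members with a mean of at least 10 at both stages, a ratio of 2.57, against 0.34 over all 11571 genes, and 67 of the 78 lay above the all-gene median. A ratio of 2 or more was reached by 50 members, 64.1%, against 31.3% of all genes, and a ratio of 0.5 or less by 1 member, Cox6b2, against 16.6% of all genes. Cox4i2 and Cox6a2 are not among the 78, since their mean was under 10 at 1 stage, and had ratios of 0.0496 and 9.79. These are pooled values with 1 number per stage, described without a test.

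The medians of the complexes lay close together, 1.32 for complex I, 1.28 for complex II, 1.40 for complex III, 1.65 for complex IV and 1.21 for complex V on the log2 scale, and ranges that overlapped. Within complexes I and V, medians differed by the role of the subunits. In complex I, the 7 core subunits of the NADH-oxidizing and quinone-reducing modules had a median of 0.53, 1 of them above a ratio of 2, while the 9 supernumerary subunits of these modules had 1.44, with 7 above it, and the 19 supernumerary subunits of the membrane arm 1.40, with 14 above it. In complex V, the 5 subunits of the F1 head had a median of 0.50, with 1 above a ratio of 2, and the 10 of the peripheral stalk and membrane part 1.52, with 8 above it. The 11 broadly expressed subunits of complex IV, with Ndufa4 counted among them, had 1.71, with 9 above it. These medians depended on the part of the transcript counted. From last exons the F1 head had 1.14 and the stalk and membrane part 1.596, a smaller gap, and the core subunits of complex I 0.69 against 1.51 and 1.20 for the supernumerary ones, while the medians of the complexes ran from 1.23 to 1.95. From first exons the gaps were wider for both, with -0.40 for the F1 head against 0.86 for the stalk and membrane part, and -0.37 for the core subunits of complex I against 0.86 and 0.87 for the supernumerary ones.

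**Figure D2:**
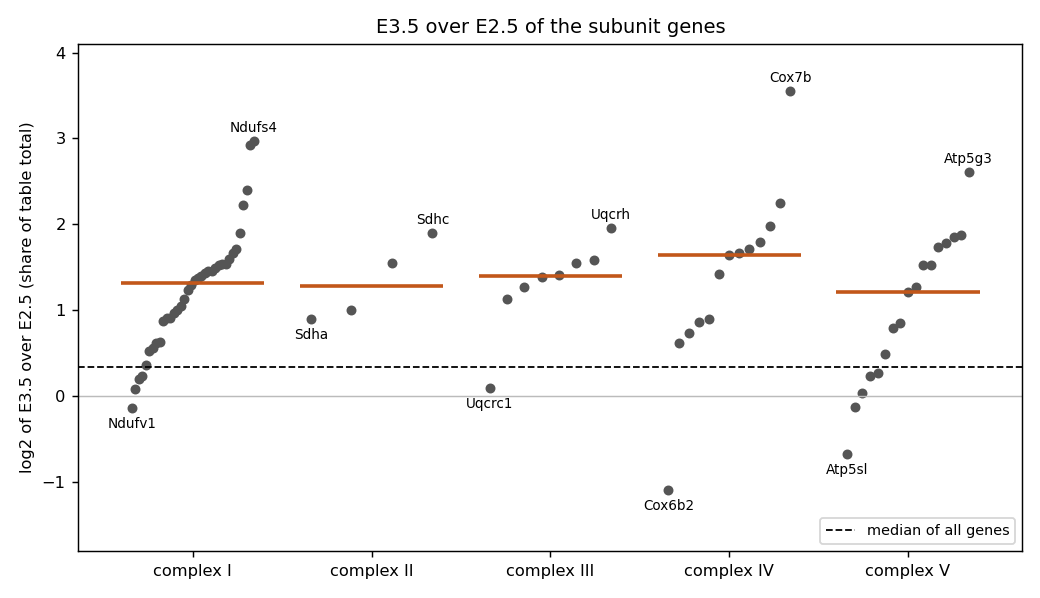
Log2 of the E3.5 over the E2.5 share of the table total for each of the 78 members with a mean of at least 10 at both stages, by complex and sorted within it. The orange bars are the medians of the complexes, between 1.21 and 1.65, and the dashed line is the median of all genes, 0.34; the highest and lowest gene of each complex is named.

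Among members with a mean of at least 100 at both stages, Cox7b, a small structural subunit of complex IV, had the highest ratio. Its mean normalized count was 399 at E2.5 and 5380.4 at E3.5, a ratio of 11.7 in the share of the total. Ndufs4 followed with 449.9 and 4066, a ratio of 7.84, and Ndufa6, another supernumerary subunit of complex I, with 642 and 5603, a ratio of 7.57. Atp5g3 had a ratio of 6.08 and Ndufa5, of the quinone module, 5.29. All 5 kept a log2 ratio over 1.6 when only the first exon was counted, and over 2.4 when only the last exon was counted.

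At the other end stood Atp5sl with a ratio of 0.626, Ndufv1 with 0.907, the F1 delta subunit Atp5d with 0.914, Atp5b with 1.03 and Ndufs7 with 1.06. Atp5b had a mean of 42523 at E2.5 and 50418 at E3.5, and Ndufv1 1812 and 1894. Cox6b2, the testis isoform of Cox6b1, was below the minimum for this list, with 137 and 74.4 and a ratio of 0.471. Atp5a1, the alpha subunit of F1, had means of 22268 and 36217 and a ratio of 1.41.

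Median stage ratios were lower in longer genes, among the members only beyond 1000 bases and among the other genes up to 3000 bases. The members were short, with a median of 744.5 bases of exons among the 78 against 2854 for all genes. Of the other genes, those of up to 500 bases had a median log2 ratio of 0.98, those of 500 to 1000 bases 0.67, those of 1000 to 2000 bases 0.24 and those of 2000 to 3000 bases 0.17, whereas the 5429 longer ones had 0.39. The members of the same classes had 1.49 (13 genes), 1.52 (37 genes), 0.91 (23 genes) and 0.50 (5 genes), each above the other genes of its class. The core subunits of complex I had a median of 1608 bases and the F1 subunits 1801, whereas the supernumerary subunits of the membrane arm had 651 and the stalk and membrane subunits of complex V 685.5. The part of length in the difference between core and small subunits was not tested.

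**Figure D3:**
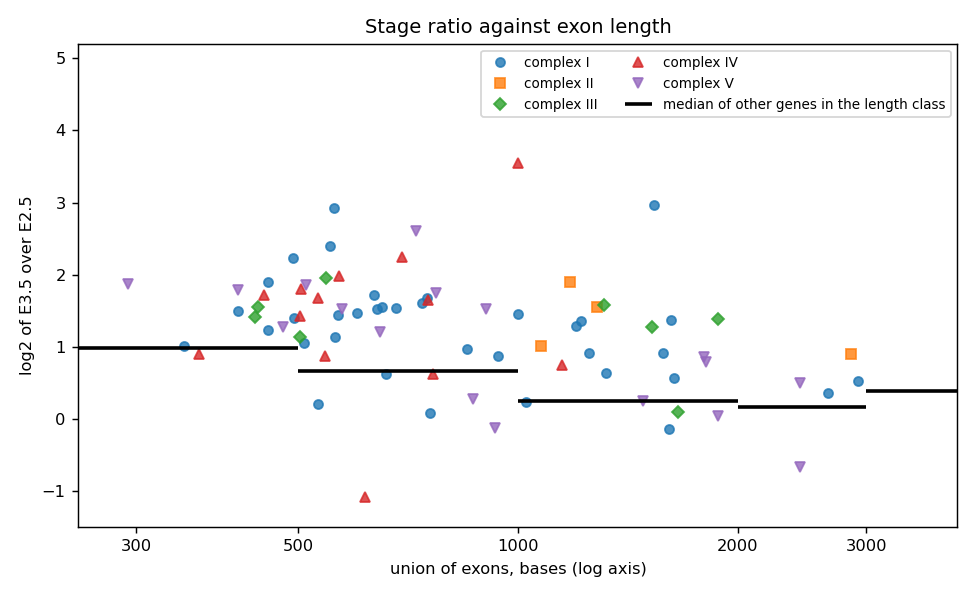
Log2 of E3.5 over E2.5 against the length of the union of exons in bases (log axis) for the 78 members, marked by complex. Black lines are the medians of all other genes in each length class, 0.98 for genes of up to 500 bases and 0.17 for those of 2000 to 3000 bases; most members lie above the line of their class, and those over 2000 bases lie at 0.90 or less.

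The exon table showed that coverage along the transcripts differed between the stages. For genes with at least 4 exons and a mean of at least 100 at both stages, each whole exon was placed in a 5' or a 3' part. This went by whether the exon's middle lay before that of the spliced transcript, so the parts can differ in length. The count per base in the 5' part was divided by that in the 3' part. Over 6668 genes the median of this ratio was 1.95 at E2.5 and 0.906 at E3.5, and it was lower at E3.5 in 92.2% of them. Over 56 members it was 1.14 and 0.860, and lower at E3.5 in 49. In complex V it was 1.06 and 0.525 over 15 genes, with a median difference within genes of -0.75 on the log2 scale.

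Single genes made this plain. In Atp5b the first exon had 37.6 counts per base at E2.5 and 7.97 at E3.5, and the last exon 23.0 and 38.3. In Atp5a1 the first exon had 6.72 and 2.25 and the last 8.38 and 26.0. In Sdha, the flavoprotein of complex II, the first exon had 2.09 and 0.649 and the last 0.620 and 2.55. The stage ratio of a long member therefore depended on the part of the transcript counted, and for Atp5b the log2 ratio was -1.99 from the first exon and 0.99 from the last.

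**Figure D4:**
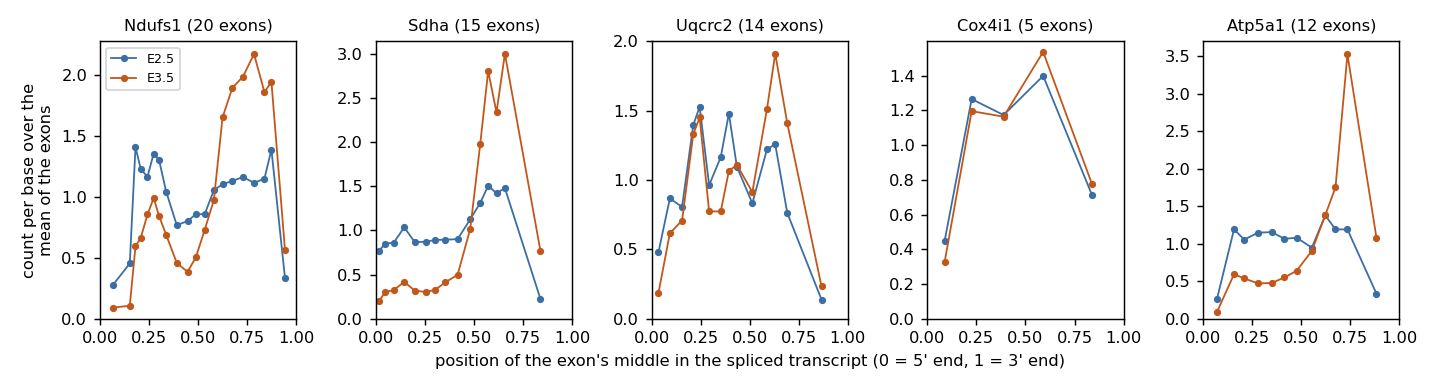
Count per base of each exon, divided by the mean over the gene's exons, against the exon's position in the spliced transcript from the 5' end (0) to the 3' end (1), at E2.5 (blue) and E3.5 (orange), for the member with the most exons in each complex. In Ndufs1, Sdha and Atp5a1 the E3.5 line lies below the E2.5 line in the 5' part and above it towards the 3' end, the gap is smaller in Uqcrc2, and the lines of Cox4i1 run close together.

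The excess of the members over all genes held in both ends of the transcripts but in different size. With last exons only, the median log2 ratio of the members was 1.37 against 0.93 for all genes, and 55 of 78 members lay above the all-gene median. With first exons only, it was 0.79 against -0.73, and 68 of 78 lay above. Among genes of up to 1000 bases, where the 2 ends lie close together, it was 1.51 against 0.74, and 43 of 50 members lay above. These 3 counts were added after the data had been seen.

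Genes that work with the subunits were taken from lists. The 6 genes found of a list of companions that the names do not catch, among them the subunits Cyc1 (cytochrome c1) and Ndufab1 (the acyl carrier protein of complex I), the mobile carrier Cycs (cytochrome c) and Atpif1, an inhibitor of the ATP synthase, had ratios of 2 or more in 6 of 6 cases. The highest per kb at both stages was 2010107E04Rik, with 4564 and 14889, and the lowest Ndufab1, with 1007 and 2793. Of 43 assembly factors, 28 lay above the all-gene median and 22 (51.2%) had a ratio of 2 or more, which 31.3% of all genes reached. Their highest ratio was that of Tmem126b, a factor of complex I assembly, with 11.4, and the lowest that of Sco2, a copper chaperone of complex IV, with 0.181. Assembly factors were far less abundant than the subunits, with medians of 366 and 582 per kb, the highest being Uqcc3 at E2.5 with 2711 and Cox17, another copper chaperone, at E3.5 with 7293.

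Of 16 regulators of mitochondrial gene expression, 7 lay above the all-gene median, and their median log2 ratio was -0.20. Nrf1, a transcription factor of respiratory genes, had means of 2626 and 961, a ratio of 0.318, and Gabpa, the DNA-binding part of the ETS factor GABP, 4174 and 2605, a ratio of 0.542. Polrmt, the mitochondrial RNA polymerase, had a ratio of 0.199, the lowest of the list. Ppargc1b, a coactivator, had 10.1 and 617, the highest ratio with 52.9, while Ppargc1a was at 2.25 and 3.84. Tfam, which packages mitochondrial DNA, had 543 and 2207, a ratio of 3.52, and Polg, its polymerase, 9.05.

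Other large complexes moved less between the stages in the same measure. The median log2 ratio was 0.55 over 77 mitochondrial ribosomal protein genes, 0.60 over 85 cytosolic ribosomal protein genes and 0.48 over 38 proteasome subunit genes. Ratios of 2 or more were reached by 24 (31.2%), 17 (20.0%) and 8 (21.1%) of them, against 31.3% of all genes. These differences from the members were described and not tested.

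The promoters of the members, taken from RefSeq on GRCm38.p6 as 250 bases before to 50 after each start, were searched on both strands for the letters of known motifs. A promoter was found for 69 of the 84 members, 66 by their symbol and 3, Atp5f1, Atp5s and Atp5sl, under the newer symbols Atp5pb, Dmac2l and Dmac2. The letters GCGCANGCG, part of the NRF1 motif, were in 20 of 69 (29.0%), against 7.03% of 27025 genes with a promoter and 16.01% of 9188 whose mean reached 10 at both stages. The letters AAGATGGCG, a YY1 motif that can overlap the start codon, were in 8 (11.6%), against 1.64% and 3.83%. The letters CCGGAAG, bound by ETS factors such as GABP, were in 16 (23.2%), against 9.93% and 21.2%. The letters TCAAGGTCA, bound by ERR receptors, were in 2 (2.90%), against 0.466% and 0.337%, and the CRE letters TGACGTCA in 4 (5.80%), against 2.03% and 3.77%. TATAAA was in 7 (10.1%), against 15.7% and 8.63%, and GGGCGG in 28 (40.6%), against 38.2% and 68.0%. CCAAT was in 31 (44.9%), against 41.1% and 43.6%.

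The NRF1 letters were spread over the complexes, in 8 of 32 promoters of complex I, 2 of 3 of complex II, 2 of 5 of complex III, 1 of 13 of complex IV and 7 of 16 of complex V. Members with them had a median log2 stage ratio of 1.58 (20 genes) and those without 1.13 (47 genes), with ranges from 0.10 to 2.92 and from -1.09 to 3.55 that overlapped. The medians with and without the ETS letters were 1.52 (16 genes) and 1.27 (51 genes). With and without the YY1 letters they were 1.355 (8 genes) and 1.351 (59 genes). Of the 5 members with the highest stage ratio, Ndufa5, Ndufa6 and Atp5g3 held the NRF1 letters, Ndufs4 held the YY1 letters, and Cox7b held neither. Sdha held them in 3 places. The first 4 stretches are shown for their members' high stage ratios and the fifth for the repeated motif, read on the strand of the gene with the motif letters of either strand in capitals. They lie at chr6:24527698-24527726 for Ndufa5, chr15:82354249-82354277 for Ndufa6, chr2:73911295-73911323 for Atp5g3, chr13:114388045-114388069 for Ndufs4, and chr13:74350320-74350348 for the first of Sdha, all on the minus strand of GRCm38.p6.
Ndufa5: tgtgtgagctGCGCAGGCGcaaatctacc
Ndufa6: cgtggcaccgCGCGTGCGCacgctgaagg
Atp5g3: agccgcaccgCGCTTGCGCgcccagcccc
Ndufs4: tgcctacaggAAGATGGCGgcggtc
Sdha: cgtttacaggGCGCAGGCGcaccaccact

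The members held little signal in their introns relative to their exons. The count per kb over the introns of a gene was expressed as a percentage of that over its exons, for genes with a summed intron count of at least 10 and a summed exon count of at least 100. The median was 0.117% over 71 members at E2.5 and 0.107% over 72 at E3.5, against 0.751% and 1.43% over all genes that passed. With a fixed minimum on introns, genes of low exon count pass only if their introns hold a larger share of the counts. The members were more abundant than most genes, and the part of the filter in this difference was not tested. At E2.5, 63 of 71 members lay below the all-gene median, and at E3.5, 69 of 72. Cox5a was the lowest member at both stages, with 0.0219% and 0.0113%.

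The highest members were Atp5s, with 4.16% and 4.09%, Cox4i2 and Sdhd at E2.5, with 2.80% and 2.58%, and Uqcrq and Uqcr10 at E3.5, with 1.64% and 1.57%. In Atp5s it lay mostly in the first intron, at chr12:69725015-69737950, with 192 of 202 counts at E2.5 and 171 of 189 at E3.5. In Sdhd it lay mostly in the last intron, at chr9:50597251-50598760, with 93.2 at E2.5 and 59.3 at E3.5, 10.1% and 2.71% of the exon level of the gene. A single intron of Atp5f1, singled out after its values were seen, reached 45.4% of the exon level at E2.5 and 9.91% at E3.5. This intron of 132 bases at chr3:105960097-105960228 overlaps the annotated genes Wdr77 and Gm42890, and since the libraries keep no strand, the reads of these genes and of Atp5f1 cannot be told apart there.

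METTL16 methylates the fourth base of the nonamer UACAGAGAA when it stands in a suitable fold, as in the hairpins of Mat2a. Copies of this nonamer in the sense strand of the members were therefore located on GRCm38.p6, which is the mm10 build of the files. In spliced transcripts, 1 of 84 members held it (1.19%), against 3.72% of 21519 genes, and the copies per Mb of spliced sequence were 12.6 for the members and 13.4 for all genes. In unspliced transcripts it was in 19 members (22.6%) against 39.1% of genes, with 31.4 copies per Mb against 20.9. The unspliced members were shorter, with a median of 6.83 kb against 16.3 kb.

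The spliced copy was in Cox7b, in the 3' UTR of its last exon, in a window at chrX:106022103-106022132 on the plus strand. Of the 28 other copies, 27 lay within introns of 18 genes, with Ndufs4 holding 4, the most of any member. The other, in Ndufs1, crossed the 3' end of intron 6 of 19, with its first 5 bases at the end of the intron and the remaining 4 in the next exon, so that the fourth base is the next to last of the intron. Of these 28 windows, 18 lay wholly in sequence masked as repeats in the reference and 7 wholly outside it. The 7 copies listed for the commonest window, in Atp5s, Cox5a, Ndufa9, Ndufs4 and Sdhb, had the same 30 bases in masked repeats and are not independent sequences. The windows run from 11 bases before to 10 after the nonamer, like the RNAs of the in vitro library, and those shown are the spliced copy, the repeated one, the one across the splice site, and those whose folds had the highest and the lowest log2 fold change in vitro. The nonamer is in capitals, and the fold predicted by RNAfold follows each sequence in dot bracket notation. The copies lie in Ndufs1 at chr1:63165017-63165046 on the minus strand, in Sdhb at chr4:140965513-140965542 on the plus strand, in Uqcrc1 at chr9:108941664-108941693 on the plus strand, in Uqcrc2 at chr7:120653406-120653435 on the plus strand, and in Cox7b2 at chr5:71542040-71542069 on the minus strand.
Cox7b: uaagcugaaauUACAGAGAAugaagaaaua
Cox7b fold: ....(((......)))..............
Sdhb: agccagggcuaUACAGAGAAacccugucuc
Sdhb fold: ((.(((((.............))))).)).
Ndufs1: uugauuuuucaUACAGAGAAggugugaugg
Ndufs1 fold: ........((((((.......))))))...
Uqcrc1: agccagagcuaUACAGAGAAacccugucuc
Uqcrc2: agcuggggcuaUACAGAGAAacacugucuu
Uqcrc1 and Uqcrc2 fold: (((....)))..((((.......))))...
Cox7b2: gaguauucuguUACAGAGAAagaguacaac
Cox7b2 fold: ..(((((((...........)))))))...

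The 29 windows folded into 19 structures, and position 15, the adenosine that can be methylated, was in a hairpin loop in 20 windows and paired in 6. Of these structures 16, covering 26 windows, were listed in the in vitro table, whose values are normalized reads summed over all RNAs with the same predicted fold, not over RNAs with the member's own sequence. The m6A-IP library of reaction 12 was far shallower than the other 3. All of the values in each library were whole multiples of 1 step, the worth of 1 read, within 0.1 read. This step was 0.519 and 0.585 in the inputs of reactions 11 and 12 and 0.459 and 6.93 after m6A-IP, so the listed structures held 20454163 and 18106811 reads in the inputs and 22118622 and 1154715 after m6A-IP. A median structure had 6 reads in the shallow library, against 95 to 114 in the others, and the 5 added before taking log2 is less than 1 read there.

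In the limma test of m6A-IP against input across all 36835 structures, at a Benjamini-Hochberg adjusted p under 0.1, 11 of the 16 were depleted and 1 was enriched, where 27.2% of all structures were depleted and 12.5% enriched. When either input library was left out, 2 were depleted and none enriched, with 2104 and 1994 structures of the table depleted, and when the m6A-IP library of reaction 11 or 12 was left out, 15 and 13 were depleted, with 20642 and 15155 of all structures. In these fits the lone library is assumed to vary like the other group. This test does not bear on whether the RNAs of the embryos carry m6A.

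The structure of Cox7b had values of 41054 and 40835 in the inputs of reactions 11 and 12 and, after m6A-IP, of 46877 and 35542. One m6A-IP library lay above and the other below both inputs, and the log2 fold change was -0.00 ± 0.25 (SE, n = 2 and 2 libraries, limma adjusted p = 0.991). Scaled to library totals it was 0.23 with a limma adjusted p of 0.000683, without the m6A-IP library of reaction 12 it was 0.20, and without that of reaction 11 it was -0.20.

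The structure shared by 10 windows in Atp5c1, Atp5s, Cox5a, Ndufa9, Ndufs4 and Sdhb, with the nonamer inside a hairpin loop of 13 bases, had values of 331 and 383 in the inputs and of 263 and 236 after m6A-IP. Both m6A-IP libraries lay below both inputs, with a log2 fold change of -0.51 ± 0.17 (SE, limma adjusted p = 0.0701). The value of 236 stands for 34 reads, and without that library the log2 fold change was -0.43. The limma adjusted p was 0.118 with scaling to library totals, 0.112 with the reaction number as a block, and 0.475 and 0.663 without the input of reaction 11 or 12, and over all alternatives it ran from 1.2e-15 to 0.663.

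The structure of Uqcrc1 and Uqcrc2 was the enriched one, and position 15 is paired in it. It had values of 81.4 and 73.1 in the inputs and of 113 and 125 after m6A-IP, both above both inputs, with a log2 fold change of 0.59 ± 0.18 (SE, limma adjusted p = 0.0588, from 3.5e-07 to 0.565 over the alternatives). The value of 125 stands for 18 reads, and without that library the log2 fold change was 0.53 (limma adjusted p = 0.000135). The structure was not called without the input of reaction 11 (limma adjusted p = 0.434) or of reaction 12 (0.565).

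The structure of the Ndufs1 window across the splice site had 2340.2 and 2398 in the inputs and 1352 and 1060.4 after m6A-IP, both below both inputs, with a log2 fold change of -0.98 ± 0.18 (SE, limma adjusted p = 0.0197, from 7.2e-233 to 0.255 over the alternatives). It was not called without the input of reaction 11 (limma adjusted p = 0.233) or of reaction 12 (0.255). In the embryos intron 6 of Ndufs1 had mean counts of 2.70 at E2.5 and 14.3 at E3.5, 0.101% and 0.474% of the exon level per kb of the gene.

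The lowest log2 fold change of the 16 was that of a Cox7b2 window, where the nonamer is in a hairpin loop of 11 bases closed by a stem. It had 939 and 968 in the inputs and 364 and 270 after m6A-IP, a log2 fold change of -1.59 ± 0.19 (SE, limma adjusted p = 0.0137, from 4.6e-245 to 0.0206 over the alternatives), and it remained depleted in every alternative. The value of 270 stands for 39 reads, and without that library the log2 fold change was -1.38. Cox7b2 itself was among the members with a mean under 10 at both stages.

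**Figure D5:**
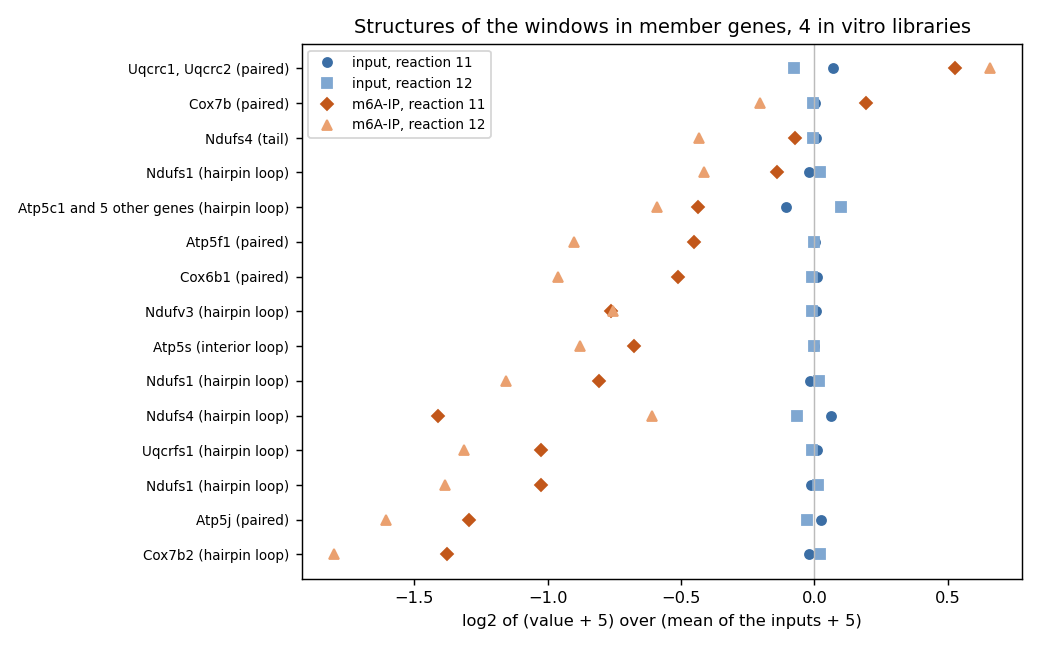
Log2 of the value plus 5 in each of the 4 in vitro libraries over the mean of the inputs plus 5, for 15 of the 16 listed structures of windows in member genes, ordered by fold change and labelled with the gene and the state of position 15. The m6A-IP points of the Uqcrc1 and Uqcrc2 structure lie above both inputs and those of Cox7b on either side of them. The values are not scaled to library totals. Those of the Cox7b2 structure, which had the lowest log2 fold change, lie below both inputs.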

How the data were processed

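For the embryos, per the labels and the study's methods, the authors estimated transcript counts with Salmon 0.7.2, summed them to genes, counted reads on exons and introns of mm10 with STAR and featureCounts, and deposited the mean normalized signal of DESeq2 1.18.1 over all embryos of a stage. The other columns of these tables hold the authors' own comparisons of genotypes, log2 fold changes and p-values, and were not used, so genotypes were not compared. For the in vitro libraries the deposited signal is reads per predicted structure divided by size factors. No column of per-sample values was left unmapped.

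The members and lists were chosen with earlier results of these data known. Named genes were the highest and lowest per kb of each complex, members with a mean under 10, isoform families, the 5 highest and 5 lowest stage ratios with means of at least 100, the 3 highest intron ratios at each stage, holders of the nonamer, and the ends of the other lists. Motifs were chosen from textbook knowledge. In vitro values were tested two-sided with limma 3.58.1 (R 4.3.3), with a mean-variance trend and a pseudocount of 5 before log2, checked on simulated data. The simulated libraries were alike in depth and scale, so this check does not cover the shallow m6A-IP library of reaction 12. Per the study's methods the reactions were run as duplicates. The p-values rest on the spread between the 2 libraries of each group. This spread holds differences in depth and scaling as well as those between reactions, which were not separated. For the structure of Cox7b the SE was 0.25, and 0.02 with scaling to library totals. The study's methods also state that each input was set aside from the reaction that was then immunoprecipitated, so the reaction numbers pair the libraries. The deviations of same-numbered libraries correlated at 0.0151, a value that is the same for both reactions by construction. With a median of 6 reads per structure in the m6A-IP library of reaction 12, it cannot show whether the pairing matters. The main test had no block, as planned. No count test was run. Windows were folded with RNAfold 2.7.2. Tables were made with Python 3.11.15 and pandas 2.3.3. Intron ratios needed summed counts of at least 10 on introns and 100 on exons. Alternatives covered the count source, length, filters, scaling, membership, introns, pseudocounts, a replicate block and each library left out; single-exon ratios, exon counts for the c-ring and Cox7a genes, short genes and, for stage ratios, membership changes were added after the data were seen. The values of 1 member's in vitro structure are not reported here.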

Additional observations from a re-analysis of the deposited data

How the results depend on the processing

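The embryo values are 1 pooled mean per gene and stage, without the spread between embryos, so alternatives show only how the summary moves. An untested value was taken as the same within 1.5-fold. Of the main summaries under alternatives, 134 stayed the same and 33 moved, and part of the latter are given here. These include the in vitro counts of enriched and depleted structures beside the embryo summaries. Median levels per kb over that of all genes moved with no filter on low values, to 136, 52.9, 254, 289.5 and 394 for complexes I to V at E2.5 and to 252, 108, 385, 488 and 734 at E3.5. From summed exon counts complex I came to 35.1 and complex III to 65.5 at E2.5, and without tissue-restricted isoforms complex IV came to 88.7 at E2.5 and 245 at E3.5. The median log2 stage ratio less that of all genes was 0.30 for complex I and 0.59 for complex IV from last exons, and 1.70 for complex III from first exons. From first exons the median log2 ratio itself was -0.37 for the core subunits of complex I and -0.40 for the F1 head, from 0.53 and 0.50. The stalk and membrane part of complex V came to 0.86 from first exons, from 1.52, and the F1 head to 1.14 from last exons. The all-gene median was 0.34, and 0.16 with median of ratios scaling. This scaling shifts all genes alike, so the count of 67 of 78 members above the median could not change with it. The intron ratio of members over that of all genes at E2.5 was 0.155, and 0.244 with summed introns of at least 100.

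In vitro, library totals gave 2 enriched member structures and 8299 enriched structures in all, and moved the median over the whole table from -0.27 to -0.055 (log2). With it the structure of Cox7b came to 0.23, from -0.00. Leaving out each library in turn gave 0 to 2 enriched and 2 to 15 depleted member structures, and 855 to 11188 enriched and 1994 to 20642 depleted structures in all, with log2 fold changes from -0.20 to 0.20 for Cox7b. The replicate block by reaction number gave 10 depleted and 1 enriched member structures, and 10863 and 4282 in all, and the structure shared by 10 windows lost its call (limma adjusted p = 0.112), with no other call changed among the 16. The m6A-IP library of reaction 12 had 843 structures at 0, against 0 in the other 3. The causes of these changes were not tested.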
